A study of Mus musculus with 4 samples.

Results

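The erythroid and heme synthesis genes are a set of 32 genes of red blood cell formation, listed by symbol and role with earlier results of these data known. Their rows were taken from RNA sequencing of mouse blood stem cells, and 30 of the 32 were found among the 23450 genes listed there. Alas2 and Icam4 were not analysed here. The 30 genes fall into 4 role groups: 4 regulators, 6 globins, 9 genes of heme synthesis and iron supply, and 11 genes of the red cell membrane, its skeleton and the carbonic anhydrases. Sptb was matched by its older symbol Spnb1. Hematopoietic stem cells (HSCs) had been sorted from bone marrow into long-term HSCs (LT-HSC: CD48-, CD150+, CD34-, CD9high) and short-term HSCs (ST-HSC: CD48-, CD150+, CD9low). Each group had 2 libraries, numbered 1 and 2, made from 2000 cells per library. Both gates exclude CD48 and require CD150, while CD34 is named in the LT-HSC gate alone. Neither strain, age and sex nor the number of mice behind a library is stated in the labels. The spread between libraries of a group, on which every p-value rests, may thus be technical.

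Red blood cells arise from stem cells through progenitors that switch on the transcription factors Gata1 and Klf1 and then make hemoglobin from alpha globin, beta globin and heme. Heme is built from glycine and succinyl-CoA by a chain of enzymes that starts and ends in the mitochondrion. Alas1 is the housekeeping form of the first enzyme and Alas2 the erythroid form. Every cell needs heme for its cytochromes and other enzymes, so most of these enzymes are active outside the red cell lineage too, whereas adult globins and band 3 (Slc4a1) mark late erythroid cells.

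Levels are given in CPM, the number of reads of a gene per 1000000 reads of its library. A floor of 3 reads in a library corresponds to 0.186 to 0.229 CPM. The libraries held 13064803 to 16145339 recovered reads. Over the 12569 genes tested below, log2(CPM + 1) correlated at 0.736 between LT-HSC 1 and 2 and at 0.797 between ST-HSC 1 and 2 (Pearson). Across the groups, LT-HSC 1 correlated at 0.744 and 0.714 with ST-HSC 1 and 2, and LT-HSC 2 at 0.763 and 0.755. The LT-HSC libraries were thus less alike than most pairs across the groups. All 8 HSC markers checked had reads in every library, and they summed to 3250 and 3371 CPM in the LT-HSC libraries against 2362 and 2458 CPM in the ST-HSC libraries. Of the members that mark late erythroid cells, Slc4a1 had no read in any library, while the 4 adult globins summed to 314 and 235 CPM in LT-HSC 1 and 2 and to 425 and 332 CPM in ST-HSC 1 and 2. The 8 cell cycle genes summed to 797 to 916 CPM in LT-HSC and 1480 to 1887 CPM in ST-HSC. Megakaryocyte and platelet markers (10 of 10 with a read) summed to 502 to 532 CPM in LT-HSC and 232 to 367 CPM in ST-HSC. That order rested on Vwf, at 304 and 380 CPM in the LT-HSC libraries and 45.3 and 9.17 CPM in the ST-HSC libraries. Without Vwf, left out after its values were seen, the other 9 summed to 198 and 153 CPM in the LT-HSC libraries and 321 and 223 CPM in the ST-HSC libraries. Itga2b lay on the ST-HSC side, at 2.45 and 5.01 CPM in the LT-HSC libraries and 152 and 105 CPM in the ST-HSC libraries. Granulocyte and monocyte markers (13 of 14 with a read, Ctsg at 0) summed to 433 to 566 CPM in LT-HSC, 785 CPM in ST-HSC 1 and 470 CPM in ST-HSC 2. Lymphocyte markers (6 of 8, Cd3e and Cd3d at 0) ranged from 174 to 222 CPM in LT-HSC and from 212 to 228 CPM in ST-HSC. Mast cell and basophil markers (2 of 5, Prss34, Ms4a2 and Gzmb at 0) ranged from 0 to 22.2 CPM in LT-HSC and from 6.33 to 16.5 CPM in ST-HSC. The part of these lists in the differences below was not tested.

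The design sets the CD9-high, CD34-negative LT-HSC against the CD9-low ST-HSC. Klf1, the membrane genes Aqp1 and Ermap, the regulator Hemgn, both alpha globin genes and the heme enzyme gene Cpox had lower levels in both LT-HSC libraries than in either ST-HSC library. Gypc and Ank1, genes of the membrane and its skeleton, had higher levels in both LT-HSC libraries. The other heme enzymes and the adult beta globins overlapped between the groups. In bulk samples of sorted cells, fewer cells that express a gene and less RNA per cell cannot be told apart. None of the members reached the adjusted threshold of 0.05. With limma this held for 0 of 12569 tested genes (0% higher and 0% lower), where 0.716 was the lowest adjusted value. Before adjustment, 815 genes had p under 0.05 with limma and 586 with limma-voom, a fit to the recovered reads that also left 0 genes after adjustment. Fold changes below are therefore values, not calls.

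**Figure D1:**
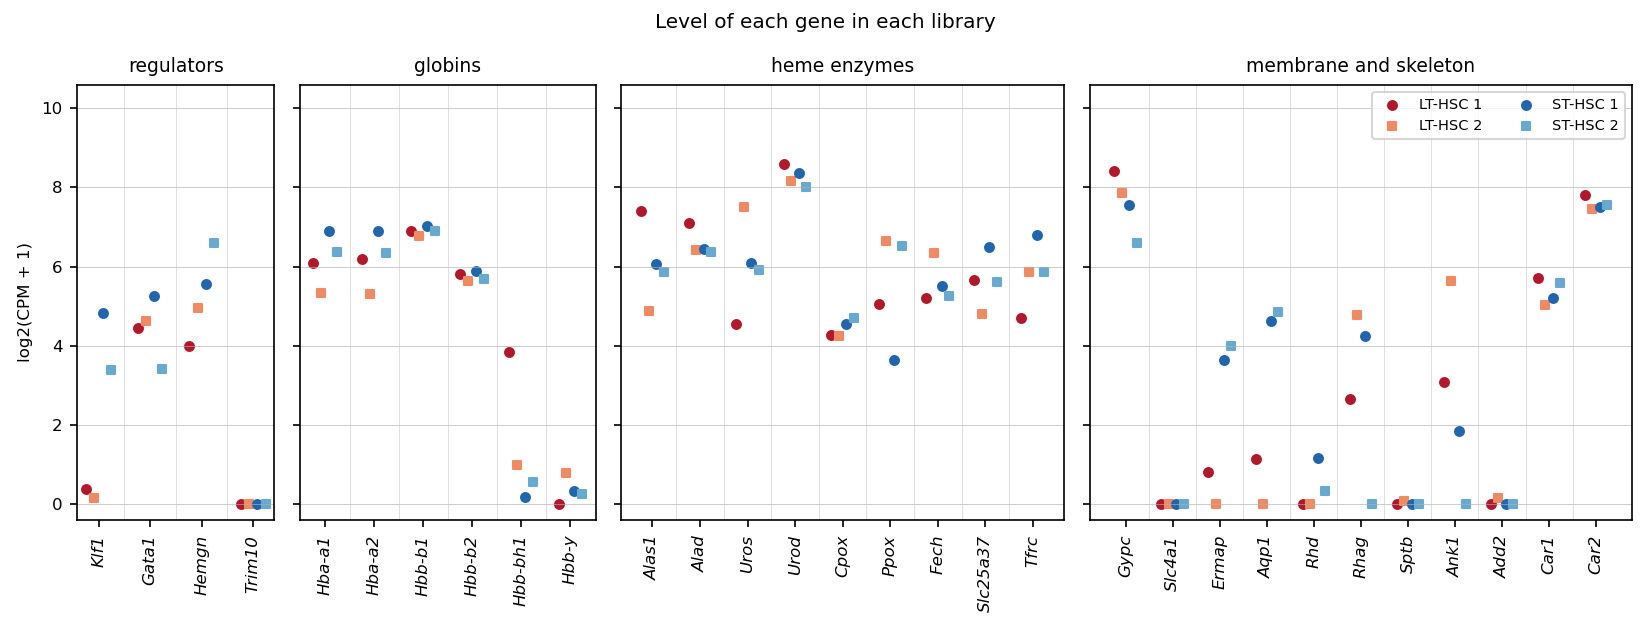
Level of the 30 genes in each library, as log2(CPM + 1), by role group. Red circles and orange squares are LT-HSC 1 and 2, and blue circles and light blue squares are ST-HSC 1 and 2. Klf1, Ermap and Aqp1 lie near 0 in LT-HSC and well above it in ST-HSC, while Trim10 and Slc4a1 lie at 0 in every library.

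Of the 30 members, 2 had no read in any library (Trim10 and Slc4a1). A further 5 (Hbb-bh1, Hbb-y, Rhd, Sptb and Add2) did not reach 1 CPM in 2 libraries and were not tested. Of the 23 tested members, 11 had a log2 fold change above 0 and 12 below 0, where positive means higher in LT-HSC. Their median log2 fold change was -0.02, beside -0.01 over all tested genes. Both LT-HSC libraries lay below both ST-HSC libraries for 7 of the 23, which is 30.4% beside 17.5% of all tested genes. Both alpha globin copies are among the 7, and their values are not independent, as given below. The reverse order, LT-HSC higher, was seen for 2 of the 23, which is 8.70% beside 16.2%. At an unadjusted p under 0.05, 3 of the 23 were lower in LT-HSC (13.0%, beside 3.60% of all tested genes) and 0 were higher (beside 2.88%). The 3 genes were Klf1, Ermap and Aqp1. Klf1 and Ermap reached 1 CPM in the ST-HSC libraries alone, so they passed the filter only through the group where they were high. Aqp1 reached it in LT-HSC 1 too, at 1.22 CPM, but not in LT-HSC 2, so it also needed an ST-HSC library to pass. Hbb-bh1, higher in both LT-HSC libraries at 13.4 and 0.990 CPM, just missed the filter, so these counts depend in part on it. The number of members lower was 2 without LT-HSC 1, 1 without LT-HSC 2, 1 without ST-HSC 1 and 0 without ST-HSC 2, beside 5.23%, 7.4%, 1.28% and 1.08% of all genes in those fits. It was 0 by limma-voom, where 2.43% of all genes were lower at that threshold. By limma-voom 1 member, Gypc, was higher, beside 2.23% of all genes. With either ST-HSC library left out, Klf1 and Ermap no longer reached the minimum level and were not tested. These shares describe the members and are not a test of the list.

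**Figure D2:**
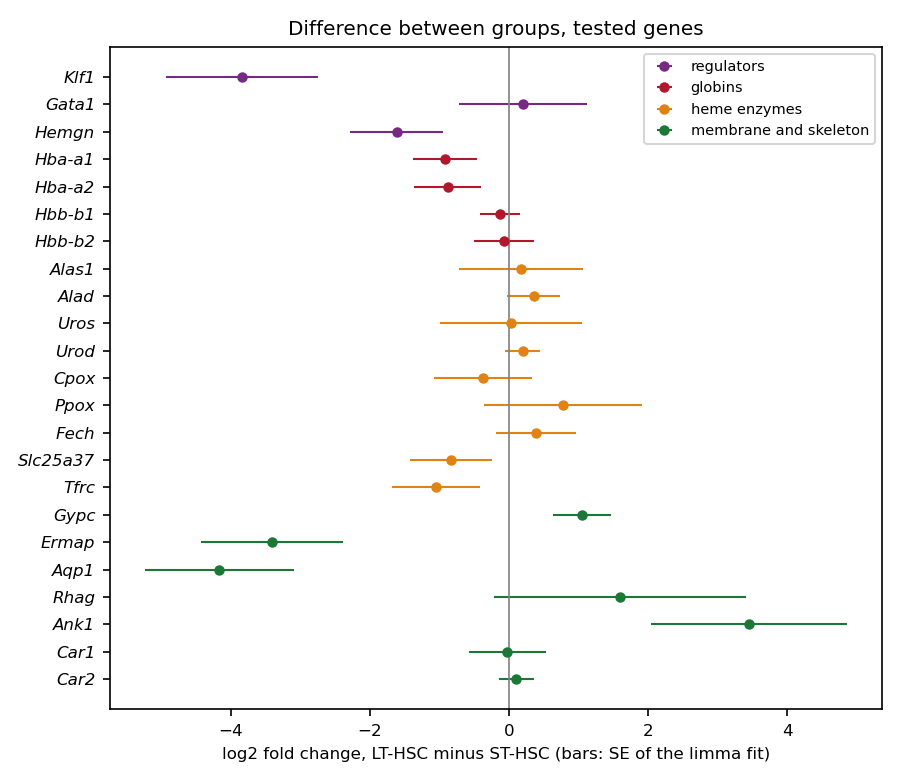
Log2 fold change of the 23 tested genes, LT-HSC minus ST-HSC, with bars for the SE of the limma fit and colours for the role groups. Klf1, Ermap and Aqp1 stand at the left between -4.16 and -3.40, Ank1 stands at the right at 3.45, and most heme enzymes lie near 0 with bars that cross it.

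Among the regulators, Klf1, the zinc finger factor that activates the adult beta globin gene and many other erythroid genes, was near the floor in LT-HSC and read in both ST-HSC libraries. It had 4 and 2 reads in LT-HSC 1 and 2 and 413 and 140 reads in ST-HSC 1 and 2, or 0.306, 0.124, 27.4 and 9.43 CPM. The groups did not overlap, and ST-HSC 1 was the higher of the ST-HSC libraries. Pooled over the libraries of a group and scaled by their totals, Klf1 reads were 90.2-fold higher in ST-HSC (exact 95% Clopper-Pearson interval 41.2 to 247, counting error only). The ratio was 46 without ST-HSC 1 (20.6 to 127), and without LT-HSC 1 it was 150 on 2 LT-HSC reads (41.2 to 1238). On the log2(CPM + 1) scale, which understates changes of low genes, the fold change was -3.83 ± 1.09 (SE), and limma gave an adjusted p of 0.716.

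Hemgn, which encodes the nuclear protein hemogen of hematopoietic cells, stood at 15.1 and 30.0 CPM in LT-HSC 1 and 2 and at 46.5 and 96.4 CPM in ST-HSC 1 and 2. The groups did not overlap, but on the log2 scale the 2 libraries of each group lay further from one another than LT-HSC 2 did from ST-HSC 1. The log2 fold change was -1.61 ± 0.67 (SE; limma adjusted p = 0.767), and it was -1.09 without ST-HSC 2 and -2.12 without ST-HSC 1. Gata1, the erythroid and megakaryocytic GATA factor, showed no such order. Its levels were 21 and 23.6 CPM in LT-HSC 1 and 2, inside the range of the ST-HSC libraries at 37.4 and 9.70 CPM. The libraries that were highest and lowest for Gata1 were thus both ST-HSC, and its log2 fold change of 0.20 ± 0.92 (SE) became -0.72 without ST-HSC 2. Trim10, a RING finger gene of late erythroid differentiation, had no read in any library.

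The upstream sequences of the 3 genes with an unadjusted p under 0.05 are shown because GATA factors act on many erythroid promoters through short GATA sites. Each window holds the 250 bases before a RefSeq transcription start in GRCm38.p6, on the strand of the gene, which is a later build than the mm9 named for the deposited values. Capitals mark a GATA motif on either strand. The forms searched were AGATAA and likewise AGATAG, with TGATAA and likewise TGATAG, and no window was matched to any other motif. Klf1 is at chr8:84901732-84901981 (plus strand), Ermap at chr4:119189996-119190245 (minus strand) and Aqp1 at chr6:55336049-55336298 (plus strand).
Klf1: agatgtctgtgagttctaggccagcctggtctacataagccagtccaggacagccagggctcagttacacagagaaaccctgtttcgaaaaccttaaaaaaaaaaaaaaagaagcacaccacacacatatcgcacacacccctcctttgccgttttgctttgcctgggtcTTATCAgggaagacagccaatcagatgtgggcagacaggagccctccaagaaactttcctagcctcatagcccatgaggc
Ermap: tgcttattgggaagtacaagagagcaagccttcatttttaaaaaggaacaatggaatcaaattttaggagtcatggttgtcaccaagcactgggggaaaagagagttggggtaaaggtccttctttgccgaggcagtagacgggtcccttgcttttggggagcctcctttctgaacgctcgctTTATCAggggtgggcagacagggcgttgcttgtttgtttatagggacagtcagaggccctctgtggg
Aqp1: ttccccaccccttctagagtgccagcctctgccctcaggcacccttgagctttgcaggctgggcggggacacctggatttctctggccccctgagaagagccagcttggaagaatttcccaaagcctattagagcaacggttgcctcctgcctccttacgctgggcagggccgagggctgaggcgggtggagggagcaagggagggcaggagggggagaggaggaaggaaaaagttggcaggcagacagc
The letters occur 1 time in the Klf1 window, 80 to 75 bases before the start, and 1 time in the Ermap window, 67 to 62 bases before the start, on the opposite strand in both. None occurs in the Aqp1 window. With member windows on 1 chromosome left out, 20 members had at least 1 such window, and 12 of these 20 genes held the letters. The letters were in 12 of the 24 member windows (50%), where some windows belong to the same gene and overlap. The Hba-a1 and Hba-a2 windows hold nearly the same sequence, and both are counted among the 12. They were in 26.5% of all 32851 windows searched, where no chromosome was left out, so the shares cover unlike sets. Beside Klf1 and Ermap the members with the letters were Hemgn, Rhd, Rhag, Hba-a1, Hba-a2, Hbb-y, Uros, Cpox and Add2, and Trim10, which had no read. A match describes letters only and is no evidence of binding.

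The globins divided into adult genes with reads in every library and embryonic genes near or below 1 CPM, except Hbb-bh1 in LT-HSC 1. Hba-a1, an adult alpha globin gene, stood at 67.5 and 39.6 CPM in LT-HSC 1 and 2 and at 118 and 81.3 CPM in ST-HSC 1 and 2. The groups did not overlap, and its log2 fold change was -0.91 ± 0.46 (SE; limma adjusted p = 0.815), or -0.53 without LT-HSC 2. Hba-a2, the other alpha globin copy, followed almost read for read. It had 936, 626, 1774 and 1201 reads in LT-HSC 1 and 2 and ST-HSC 1 and 2, against 883, 640, 1779 and 1206 for Hba-a1. The longest protein-coding transcripts of the copies in GENCODE M21 matched at 537 of 538 aligned positions (99.8%), so reads of one cannot be separated from reads of the other with confidence, and their values are not independent.

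The adult beta globin genes hardly differed between the groups. Their transcripts were not compared here, so how far their reads can be separated is uncertain. Hbb-b1 was at 119 and 108 CPM in the LT-HSC libraries and 130 and 118 CPM in the ST-HSC libraries, with a log2 fold change of -0.13 ± 0.29 (SE). Hbb-b2 was at 55.7 and 48.6 CPM in the LT-HSC libraries and 58.6 and 51.0 CPM in the ST-HSC libraries, with a log2 fold change of -0.07 ± 0.43 (SE). Both overlapped between the groups (limma adjusted p = 1 for each), and the libraries numbered 1 were the higher ones in each group. ST-HSC 1 was the highest library for all 4 adult globin genes, though by little for Hbb-b1 and Hbb-b2. It was also the highest for the summed granulocyte and monocyte markers given above, where 6 of the 13 markers with a read were highest in it. Among these, Ngp, Camp and Ltf stood at 102, 61.8 and 37.6 CPM in ST-HSC 1 and at 0 CPM in ST-HSC 2. A link between these markers and the globins was not tested. For scale, the gene with the most reads stood at 3258 to 4040 CPM, depending on the library.

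Of the embryonic globins, Hbb-bh1 had 175 and 16 reads in LT-HSC 1 and 2 and 2 and 7 reads in ST-HSC 1 and 2. LT-HSC 1 alone carried most of them, at 13.4 CPM against 0.990, 0.133 and 0.472 CPM in the others. The pooled ratio was 21.7-fold higher in LT-HSC (exact 95% Clopper-Pearson interval 11.2 to 48.2, counting error only). It was 3.29 without LT-HSC 1 (1.37 to 8.44), 44.4 without LT-HSC 2, 13.8 without ST-HSC 1, and 49.1 without ST-HSC 2 on 2 ST-HSC reads (13.4 to 409). Hbb-y, the embryonic epsilon-type gene, had 0, 12, 4 and 3 reads and no order between groups.

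Genes of heme synthesis had reads in every library, and the groups overlapped for all of them except Cpox. All 9 genes of this role group were tested, 6 with a log2 fold change above 0 and 3 below, and their median was 0.18. Over the 7 enzymes alone it was 0.20, with 6 above 0 and 1 below. Across these enzymes the median gap between LT-HSC 1 and 2 was 1.14 on the log2(CPM + 1) scale and that between ST-HSC 1 and 2 was 0.20. Over all tested genes these median gaps were 0.69 and 0.56.

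Alas1, which makes aminolevulinic acid and sets the pace of the pathway in most tissues, reached 169 CPM in LT-HSC 1 but 28.7 CPM in LT-HSC 2. The ST-HSC libraries, at 66.5 and 57.6 CPM, lay between them. Its log2 fold change was 0.18 ± 0.89 (SE), 1.44 without LT-HSC 2 and -1.08 without LT-HSC 1. Uros, the synthase that closes the ring as uroporphyrinogen III, had the opposite order in LT-HSC, with 22.6 CPM in LT-HSC 1 but 182 CPM in LT-HSC 2. The ST-HSC libraries were again in between, at 67.7 and 59.2 CPM, and the log2 fold change was 0.03 ± 1.02 (SE). Thus the library that was highest for Alas1 was the lowest for Uros.

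Alad, which joins aminolevulinic acid into porphobilinogen, was at 137 and 85.3 CPM in the LT-HSC libraries and 86.9 and 81.7 CPM in the ST-HSC libraries. Urod, the decarboxylase of uroporphyrinogen, was at 388 and 287 CPM in the LT-HSC libraries and 329 and 256 CPM in the ST-HSC libraries. Both overlapped between groups, with log2 fold changes of 0.36 ± 0.38 and 0.20 ± 0.25 (SE). Cpox, the coproporphyrinogen oxidase, was at 18.2 and 18.1 CPM in the LT-HSC libraries and 22.5 and 25.2 CPM in the ST-HSC libraries, so that the groups did not overlap. Its log2 fold change of -0.37 ± 0.71 (SE; limma adjusted p = 1) was smaller than its SE in the fit, which draws on the spread of genes of like level.

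Ppox, the protoporphyrinogen oxidase, split each group by library. It stood at 32.6 and 99.3 CPM in LT-HSC 1 and 2 and at 11.5 and 90.5 CPM in ST-HSC 1 and 2. The libraries numbered 2 were the higher ones in both groups. Fech, the ferrochelatase that inserts iron, was at 35.9 and 80.2 CPM in the LT-HSC libraries and 44.5 and 37.6 CPM in the ST-HSC libraries. The log2 fold changes of Ppox and Fech were 0.78 ± 1.14 and 0.39 ± 0.58 (SE), and both changed sign with a library left out.

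**Figure D3:**
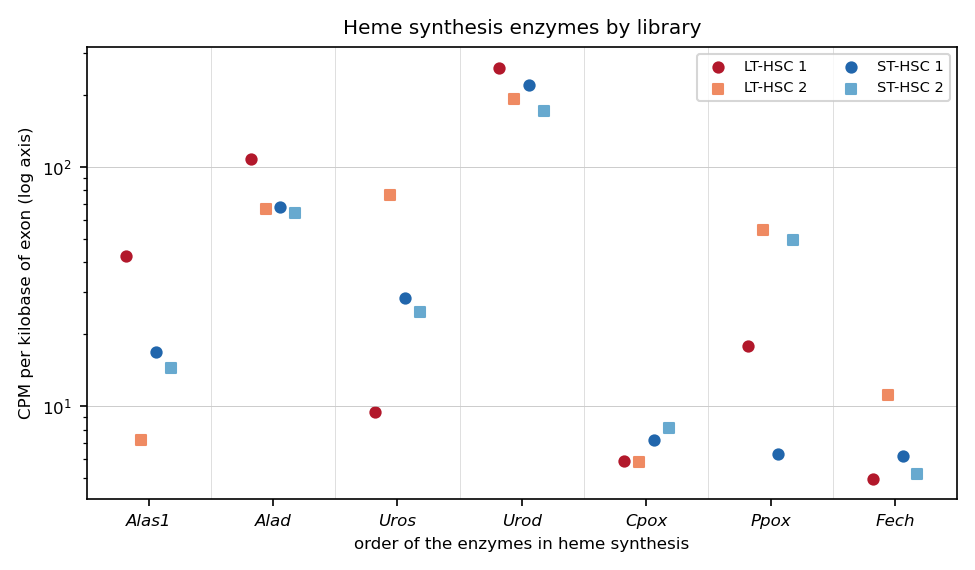
Level of the 7 heme synthesis enzymes among the members in the order of the pathway, as CPM per kilobase of exon on a log axis, with a symbol for each library. Urod is the highest in every library, Cpox and Fech are low, and the LT-HSC libraries stand apart for Alas1 and Uros.

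Per kilobase of exon, Urod was the highest of these 7 enzymes in every library, at 172 to 261 CPM per kilobase, and Alad followed at 64.3 to 108 in all libraries except LT-HSC 2, where Uros stood at 76.6 and Alad at 67.1. Cpox, at 5.85 to 8.14, and Fech, at 4.99 to 11.1, were among the lowest, and their ranges over the libraries overlapped. Exon lengths came from GENCODE M21 on GRCm38 and cover all basic transcripts of a gene, so these levels are approximate.

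Both iron supply genes lay lower on average in LT-HSC but overlapped. Tfrc, the transferrin receptor, was at 25 and 57.6 CPM in the LT-HSC libraries and 111 and 56.9 CPM in the ST-HSC libraries, so that LT-HSC 2 and ST-HSC 2 were level. Slc25a37, the mitochondrial iron importer mitoferrin, was at 49.9 and 26.9 CPM in the LT-HSC libraries and 90.1 and 48.0 CPM in the ST-HSC libraries. The log2 fold changes were -1.05 ± 0.63 for Tfrc and -0.83 ± 0.59 for Slc25a37 (SE; limma adjusted p = 0.853 and 0.874). Tfrc is also known to be high in dividing cells, and the cell cycle genes summed higher in both ST-HSC libraries, as given above. Of those 8 genes, 5 were lower in both LT-HSC libraries and 3 overlapped. Their sum was higher in ST-HSC 2 (1887 CPM) than in ST-HSC 1 (1480 CPM), whereas Tfrc was higher in ST-HSC 1. The part of the cell cycle genes in the Tfrc values was not tested.

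The membrane and skeleton genes held the widest differences in both directions, from -4.16 to 3.45 on the log2 scale over 7 tested members. Aqp1, the water channel of the red cell, had 16 and 0 reads in LT-HSC 1 and 2 and 356 and 415 reads in ST-HSC 1 and 2, or 1.22, 0, 23.7 and 28.0 CPM. Ermap, an erythroid membrane protein of the immunoglobulin superfamily, had 10 and 0 reads in LT-HSC and 172 and 221 reads in ST-HSC, or 0.765, 0, 11.4 and 14.9 CPM. For both genes LT-HSC 2 had no read, all LT-HSC reads came from LT-HSC 1, and the ST-HSC libraries were close to one another. The pooled reads were 47.1-fold higher in ST-HSC for Aqp1 (exact 95% Clopper-Pearson interval 28.8 to 82.9) and 38.5-fold higher for Ermap (20.7 to 80.8), counting error only. Without LT-HSC 2 these ratios were 21.1 and 17.2, and without LT-HSC 1, against a floor of 3 reads, they were at least 139 and 70.8. The log2 fold changes were -4.16 ± 1.07 and -3.40 ± 1.02 (SE; limma adjusted p = 0.716 for each). With 1 library left out the unadjusted p of Aqp1 ranged from 0.0182 to 0.0557, the highest without ST-HSC 2.

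Rhd, the Rh blood group gene, had no read in LT-HSC and 19 and 4 reads in ST-HSC 1 and 2. Against a floor of 3 reads per library it was at least 3.69-fold higher in ST-HSC, or at least 1.30-fold without ST-HSC 1. Rhag, the Rh-associated ammonia channel, did not share this order, at 5.28 and 26.7 CPM in the LT-HSC libraries and 17.9 and 0 CPM in the ST-HSC libraries. Its log2 fold change of 1.60 ± 1.81 (SE) became -0.52 without ST-HSC 2. Both Rh genes had reads in ST-HSC 1, and only Rhag had reads in LT-HSC.

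Gypc and Ank1 lay on the LT-HSC side. Gypc, which encodes glycophorin C, a link from the membrane to the skeleton that other blood cells also carry, was at 341 and 230 CPM in the LT-HSC libraries and 189 and 95.1 CPM in the ST-HSC libraries. The groups did not overlap, and the log2 fold change was 1.05 ± 0.42 (SE; limma adjusted p = 0.767), or 0.56 without ST-HSC 2. Ank1, the erythroid ankyrin that ties band 3 to spectrin, was at 7.57 and 49.1 CPM in the LT-HSC libraries and 2.59 and 0 CPM in the ST-HSC libraries. Its log2 fold change was 3.45 ± 1.41 (SE; limma adjusted p = 0.767), and it was 4.72 without LT-HSC 1 and 2.18 without LT-HSC 2. Slc4a1 had no read in any library, while Sptb (beta spectrin) had 1 read and Add2 (beta adducin) had 2 reads, in LT-HSC 2, the library where Ank1 was highest. Epb4.2 (protein 4.2), from the list of other membrane genes, had 168 reads in that library, 1 read in ST-HSC 2 and none in the others.

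The carbonic anhydrases, which interconvert carbon dioxide and bicarbonate, overlapped between the groups. Car2 was at 225 and 175 CPM in the LT-HSC libraries and 181 and 187 CPM in the ST-HSC libraries, with a log2 fold change of 0.11 ± 0.25 (SE). Car1 was at 51.5 and 31.8 CPM in the LT-HSC libraries and 36.1 and 47.0 CPM in the ST-HSC libraries, with a log2 fold change of -0.02 ± 0.55 (SE). Per kilobase of exon Car2 stood above Car1 in every library, at 98.0 to 126 against 25.5 to 41.4 CPM per kilobase.

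**Figure D4:**
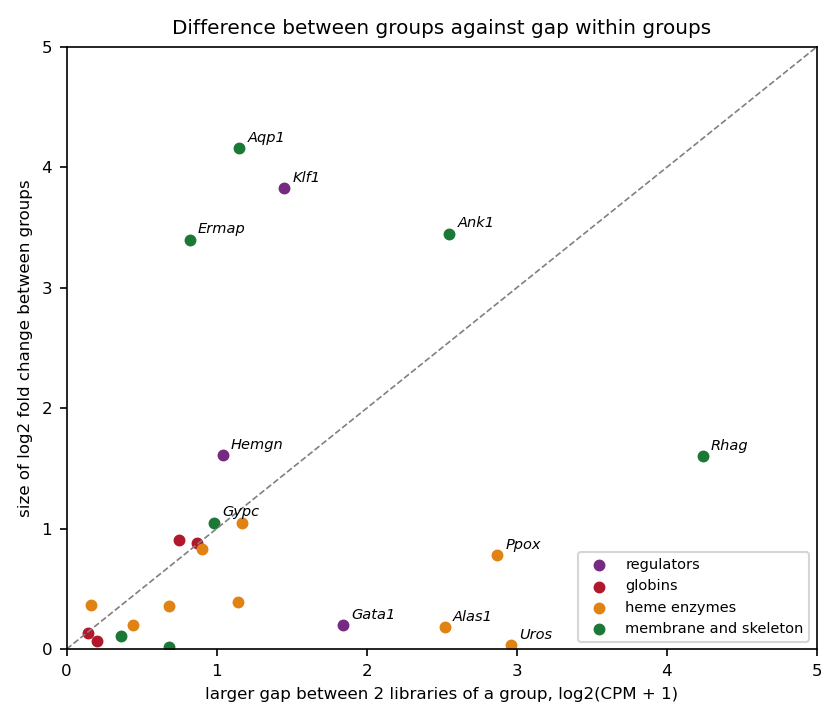
Size of the log2 fold change between groups (vertical) against the larger gap between the 2 libraries of a group (horizontal), both on the log2(CPM + 1) scale, for the 23 tested genes. The dashed line marks equality: Klf1, Aqp1, Ermap, Ank1 and Hemgn lie above it, and Rhag, Ppox, Uros, Alas1 and Gata1 lie well below it.

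The difference between groups exceeded the gap within both groups for 9 of the 23 tested members (39.1%), beside 21.8% of all tested genes. They were Klf1, Hemgn, Hba-a1, Hba-a2, Cpox, Gypc, Ermap, Aqp1 and Ank1. Both alpha globin copies, Hba-a1 and Hba-a2, are counted here although their values are not independent. Klf1 and Ermap passed the filter only through the ST-HSC libraries, where they were high, so this share depends in part on the filter. For Hba-a2 and Gypc the margin was small, with differences of -0.88 and 1.05 and larger gaps of 0.87 and 0.98. Rhag and Uros had the widest gaps, 4.24 between the ST-HSC libraries and 2.96 between the LT-HSC libraries.

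Other genes of erythroid regulation were read alongside Klf1 and Gata1. Of 17 partner regulators analysed, all were tested, 0 passed the adjusted threshold in either direction, 13 had a log2 fold change above 0 and 4 below, and the median was 0.22. The LT-HSC libraries were the 2 highest for 5 of them (29.4%, beside 16.2% of all tested genes) and the 2 lowest for 0 (beside 17.5%). Ldb1, the bridging cofactor of the GATA and Tal1 complex, was at 227 and 231 CPM in the LT-HSC libraries and 171 and 104 CPM in the ST-HSC libraries, with a log2 fold change of 0.78 ± 0.32 (SE; limma adjusted p = 0.767). Epor, the erythropoietin receptor, was at 50.8 and 26.5 CPM in the LT-HSC libraries and 7.38 and 21.1 CPM in the ST-HSC libraries, with 1.47 ± 0.87 (SE; limma unadjusted p = 0.152, adjusted p = 0.847). Leaving out ST-HSC 1 gave 0.77 and leaving out ST-HSC 2 gave 2.17, the lowest and highest of the 4 such values. Stat5a, a signal transducer of that receptor, stood at 0.37 ± 0.23 (SE). On the ST-HSC side the 3 with the lowest p were Gata2 at -0.18 ± 0.33, Jak2 at -0.14 ± 0.37 and Myb at -0.04 ± 0.28 (SE), each of which changed sign with a library left out.

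Of 27 other heme and iron genes, all tested, 0 passed in either direction, 15 had a log2 fold change above 0 and 12 below, and the median was 0.15. Eif2ak1, the heme-regulated kinase that restrains translation when heme is short, was at 85.1 and 76.2 CPM in the LT-HSC libraries and 185 and 126 CPM in the ST-HSC libraries. Its log2 fold change was -0.91 ± 0.34 (SE; unadjusted p = 0.0434, limma adjusted p = 0.767). It was 1 of 27 genes lower at an unadjusted p under 0.05, or 3.7%, close to the 3.60% of all tested genes. Steap3, the ferrireductase of the transferrin cycle, was at 0.229 and 13.9 CPM in the LT-HSC libraries and 33.4 and 50.6 CPM in the ST-HSC libraries, and its log2 fold change of -3.30 ± 1.45 (SE) was -1.50 without LT-HSC 1. Ireb2, an iron-responsive RNA-binding protein gene, had -0.64 ± 0.41. On the LT-HSC side, Pgrmc1, a heme-binding protein gene, had 0.48 ± 0.33 and Hebp1, another, had 1.58 ± 1.10 (SE).

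Of 25 other red cell membrane and cytosol genes, 21 were tested and 0 passed in either direction. Above 0 were 14 and below 0 were 7, with a median of 0.09. Xk, which encodes the membrane partner of the Kell protein, was at 66.4 and 35.8 CPM in the LT-HSC libraries and 15.8 and 13.8 CPM in the ST-HSC libraries, with a log2 fold change of 1.66 ± 0.68 (SE; limma adjusted p = 0.767). Art4, the gene of the Dombrock blood group, was at 86.9 and 179 CPM in the LT-HSC libraries and 35.9 and 67.5 CPM in the ST-HSC libraries, with 1.32 ± 0.55 (SE; limma adjusted p = 0.767). Neither overlapped between the groups, and both lay on the LT-HSC side, as did Gypc and Ank1 among the members. Of the 21 tested genes of this list, 4 were free of overlap on that side (19%), close to the 16.2% of all tested genes. On the ST-HSC side 1 was free of overlap (4.76%, beside 17.5%). Add1 (alpha adducin) had 0.36 ± 0.26 (SE). On the other side, Add3 (gamma adducin) was at 1.38 and 59.5 CPM in the LT-HSC libraries and 87.1 and 77.1 CPM in the ST-HSC libraries, with -2.79 ± 1.59 (SE), or -0.46 without LT-HSC 1, while Tspan33 had -1.29 ± 1.94 and Bcam -0.51 ± 1.06 (SE).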

How the data were processed

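Each library began with 2000 sorted cells, whose RNA was turned into cDNA by SMARTer synthesis and prepared by Illumina protocols (per the labels' protocols). TopHat and the mm9 build appear in the submitters' processing notes, and the counter and annotation do not. The authors deposited, per library, log2 values of 23450 gene symbols. Low values step in whole reads, so reads were recovered by taking the value as log2 of reads plus 1 per 1000000. Up to 100 reads, 100% of values lay within 0.1 of whole reads, with the scale set from the same steps. If genes without a read were instead raised to 1 read, each read gene would hold 1 read more. Amplified reads are not independent molecules, so intervals and floors cover counting error only.

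CPM used the authors' library totals. Genes reaching 1 CPM in 2 or more libraries were tested on log2(CPM + 1) with limma 3.58.1 in R 4.3.3 (trend, robust, statmod 1.5.0), with Benjamini-Hochberg adjustment over 12569 genes and a threshold of 0.05. The count test planned for raw counts was not used, because the deposited unit is log2. An exact permutation test of 2 against 2 libraries cannot give a 2-sided p below 0.333, so none was run. The script was tested on simulated data. The members, lists and tests were chosen with earlier results of these data known. Named are all members and, per pathway list, the 3 lowest p-values on each side, except a gene that is not reported here. Alternatives were other filters, another added value, median-of-ratios scaling, the replicate block, limma-voom and each library left out. Pooled read ratios without each library, and the megakaryocyte sum without Vwf, were added after seeing the data. Upstream windows are from RefSeq (GRCm38.p6) and exon lengths from GENCODE M21.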

Additional observations from a re-analysis of the deposited data

How the results depend on the processing

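No gene passed the adjusted threshold under any of the 10 alternatives. Of 403 values of 41 single genes under these alternatives, 382 kept their direction and 21 reversed, all with a library left out, and none passed; the cause was not tested. With 1 library left out, the lone library of a group is assumed to vary like the other group, and the log2 fold change ranged from -0.72 to 1.12 for Gata1, -0.17 to 0.03 for Hbb-b2, -1.08 to 1.44 for Alas1, -1.45 to 1.51 for Uros, -0.02 to 0.42 for Urod, -0.66 to 2.22 for Ppox, -0.18 to 0.95 for Fech, -0.52 to 3.72 for Rhag, -0.36 to 0.32 for Car1, -0.07 to 0.29 for Car2, -0.52 to 0.16 for Gata2, -0.34 to 0.06 for Jak2, -0.31 to 0.22 for Myb, -3.89 to 1.32 for Tspan33 and -1.03 to 0.18 for Bcam. Members past an unadjusted p of 0.05 numbered 0 to 2 higher and 0 to 2 lower with 1 library left out (1.56% to 3.4% and 1.08% to 7.4% of all genes), and 1 higher (Gypc) and 0 lower by limma-voom. Medians with 1 library left out ranged from -0.20 to 0.03 for all members, -2.08 to -0.50 for regulators, -0.18 to 0.12 for heme and iron genes and -0.07 to 0.82 for membrane and skeleton genes. Without a filter the globin median was -0.10, since both embryonic genes entered. With the replicate number as a block, 1 member was higher (Gypc) and 4 were lower (Klf1, Hemgn, Ermap and Aqp1) at an unadjusted p under 0.05 (3.13% and 3.84% of all genes), and 0 genes passed the adjusted threshold. Whether libraries of the same number were made together is not stated. The differences between libraries 1 and 2 correlated across genes at r = 0.0518 between the groups, which cannot decide whether they were paired.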
